A study of Homo sapiens with 10 samples.

Results

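The genes described here are transcriptional targets of the tumour suppressor p53 other than CDKN1A, the gene of p21. A list of 35 such genes was drawn up from their published role in the p53 pathway, with earlier results of these data known. Counts of the list beside all genes therefore describe it and do not test it. Of the 35 genes, 32 were measured by a probe set that names 1 gene, out of 18279 genes measured in that way. The other 3, BTG2, FDXR and TNFRSF10C, were not analysed here as single genes. For a gene with several probe sets, the brightest by its average over the 10 arrays stood for it. All values are log2 signals as deposited, so a difference of 1 log2 unit is a 2-fold difference in signal, and levels of different genes are not compared.

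Transcripts were measured on 10 Affymetrix arrays of human lung cell lines in 4 groups. A549, a lung adenocarcinoma line known to carry unmutated p53, was exposed to 32 nM discodermolide on 2 arrays and is labelled senescent there. AD32, labelled resistant and grown in 32 nM discodermolide, was measured on 3 arrays, and a line labelled AD32 4E-BP1, called sensitive and given 0.01% DMSO, on 1 array. A549 in 0.01% DMSO, labelled sensitive, was measured on 4 arrays. All were grown in the same medium with serum. AD32 is known as a line selected from A549 in the drug, so AD32 and the drug are not separated: no array of AD32 without discodermolide was analysed here. The length of exposure, whether AD32 and its derivative are single clones, and the promoter behind the 4E-BP1 construct are not stated in the labels. The labels call the arrays of each replicated group biological replicates, but nothing states that they came from separate cultures grown apart. The p-values therefore measure the spread between these samples, which may be partly technical.

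Discodermolide binds and stabilises microtubules, and cells held up in mitosis by such agents are known to accumulate p53. p53 is a DNA-binding transcription factor that is kept scarce by the ubiquitin ligase MDM2, itself a p53 target, and is freed by DNA damage and other stresses. Its targets slow the cell cycle, repair DNA, sensitise cells to death receptors, act on mitochondria, restrain mTOR signalling through the sestrins, and feed back on p53. p53 binds DNA as a tetramer at a pair of consensus decamers separated by a short spacer.

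To show what such elements look like in this set, promoter windows of RefSeq genes (GRCh38.p14) were searched for the p53 consensus decamer, which reads the same on both strands. The windows ran from 250 bases before to 50 bases after the annotated start. A decamer lay in 6.63% of 35116 windows, and in at least 1 window of 8.06% of 27305 genes. Of 29 listed genes with a window, 7 held one: AEN, DDB2, FAS, FDXR, PLK2, RPS27L and SESN1. A full site, a pair of decamers up to 13 bases apart, occurred in 10 windows (0.0285%), and DDB2 was the only listed gene among them. The sequences printed below are the stretch from 250 bases before to 30 bases after the start for DDB2 (chr11:47214724-47215003, plus strand), AEN (chr15:88621090-88621369, plus strand), SESN1 (chr6:109008959-109009238, minus strand), PLK2 (chr5:58460057-58460336, minus strand) and MDM2 (chr12:68808767-68809046, plus strand). The first 4 are shown because they hold a decamer and were called in a comparison, and MDM2 because it is the feedback regulator. Capitals mark the decamers, which begin at bases 6 and 17 after the start in DDB2, and at base -34 in AEN, -49 in SESN1 and -132 in PLK2. In MDM2 the capitals mark the joined pair of decamers with the fewest departures from the consensus, 2, beginning at base -94. A joined pair with 2 or fewer departures was present in 0.649% of windows.
DDB2: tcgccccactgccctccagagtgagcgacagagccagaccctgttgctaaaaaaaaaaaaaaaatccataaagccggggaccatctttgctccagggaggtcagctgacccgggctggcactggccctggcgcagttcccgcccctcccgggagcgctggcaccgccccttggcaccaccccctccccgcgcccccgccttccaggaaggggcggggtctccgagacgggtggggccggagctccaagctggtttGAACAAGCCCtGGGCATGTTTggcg
AEN: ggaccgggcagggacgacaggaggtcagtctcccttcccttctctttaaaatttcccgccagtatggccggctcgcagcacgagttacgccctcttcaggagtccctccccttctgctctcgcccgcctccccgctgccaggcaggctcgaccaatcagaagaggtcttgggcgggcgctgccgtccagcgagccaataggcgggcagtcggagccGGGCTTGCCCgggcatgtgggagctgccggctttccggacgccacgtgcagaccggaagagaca
SESN1: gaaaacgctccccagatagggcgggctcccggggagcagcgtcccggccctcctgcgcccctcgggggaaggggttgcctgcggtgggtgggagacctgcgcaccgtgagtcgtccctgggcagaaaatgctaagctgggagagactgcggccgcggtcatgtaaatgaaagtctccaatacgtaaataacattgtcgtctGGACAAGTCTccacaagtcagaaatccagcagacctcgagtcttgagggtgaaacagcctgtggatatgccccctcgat
PLK2: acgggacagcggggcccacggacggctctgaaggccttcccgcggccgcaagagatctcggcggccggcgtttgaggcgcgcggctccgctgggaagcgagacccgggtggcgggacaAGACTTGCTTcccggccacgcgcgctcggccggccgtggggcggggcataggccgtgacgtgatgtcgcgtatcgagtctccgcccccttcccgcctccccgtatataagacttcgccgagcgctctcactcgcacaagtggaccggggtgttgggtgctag
MDM2: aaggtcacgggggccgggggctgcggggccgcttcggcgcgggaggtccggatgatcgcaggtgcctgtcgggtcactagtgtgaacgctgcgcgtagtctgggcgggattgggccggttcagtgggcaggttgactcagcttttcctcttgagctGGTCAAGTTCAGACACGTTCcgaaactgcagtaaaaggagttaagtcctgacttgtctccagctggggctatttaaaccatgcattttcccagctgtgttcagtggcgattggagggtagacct
A match in these letters describes the sequence and not binding, and a window this short leaves out elements farther away and in introns.

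Before the comparisons, the arrays themselves need description. Array medians lay between 6.50 and 6.63 log2 units. A549 DMSO replicates 3 and 4 were nearly identical (r = 0.9973 over all probe sets, SD of their difference 0.170). Both are labelled biological replicates and were kept as separate samples. The counts with their mean as 1 sample are given beside the results they change. A549 DMSO replicate 1 stood apart from the rest of its group. Its mean over 25 G2/M genes, a measure of cycling cells, was 6.98, against 9.96 to 10.11 on the other A549 DMSO arrays, and lay in the range of the drug-treated A549 arrays (6.80 and 7.02). AD32 replicate 3 stood apart in the other direction, with a G2/M mean of 9.78 against 5.63 and 6.57 on the other AD32 arrays. The lone array labelled AD32 4E-BP1 did not carry the genes that mark AD32. MAGEB2, a cancer-testis antigen gene, was 3.73 there, between 9.96 and 10.19 in AD32 and between 3.78 and 4.44 in A549 in DMSO. KRT7, a keratin gene, was 7.35 there, between 11.74 and 11.84 in AD32 and between 7.00 and 7.40 in A549 in DMSO. EIF4EBP1, which encodes 4E-BP1, was 11.61 there, between 7.99 and 8.93 in AD32 and between 9.47 and 10.23 in A549 in DMSO. Over the 598 genes called at 2-fold or more between AD32 and A549 in DMSO, 576 were nearer the A549 mean on that array. Cell type markers are given as means per array, without a detection call: 6 epithelial markers averaged 8.33 to 8.94, 5 fibroblast markers 5.79 to 6.73, 5 endothelial markers 4.40 to 4.79 and 4 leukocyte markers 4.28 to 4.67. Their part in the results was not tested.

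Taken as a mean over the 32 genes, p53 target levels were 9.58 and 9.41 on the A549 arrays in discodermolide, 9.44, 9.74 and 9.02 on the AD32 arrays, 8.35 on the array labelled AD32 4E-BP1, and 8.25, 8.18, 8.47 and 8.48 on the A549 arrays in DMSO. Every drug-exposed array lay above every DMSO array by this measure. The plot of this mean against the G2/M mean shows where the arrays that stood apart by cycling genes lay. A549 DMSO replicate 1, with a G2/M mean of 6.98, had a p53 target mean of 8.25, inside the range of its group. AD32 replicate 3, with a G2/M mean of 9.78, had the lowest p53 target mean of the AD32 arrays, 9.02, which was still above all DMSO arrays. The part of cycling state in the p53 target levels was not tested. These samples are whole cultures, so fewer cells of a kind and less RNA per cell cannot be told apart.

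**Figure D1:**
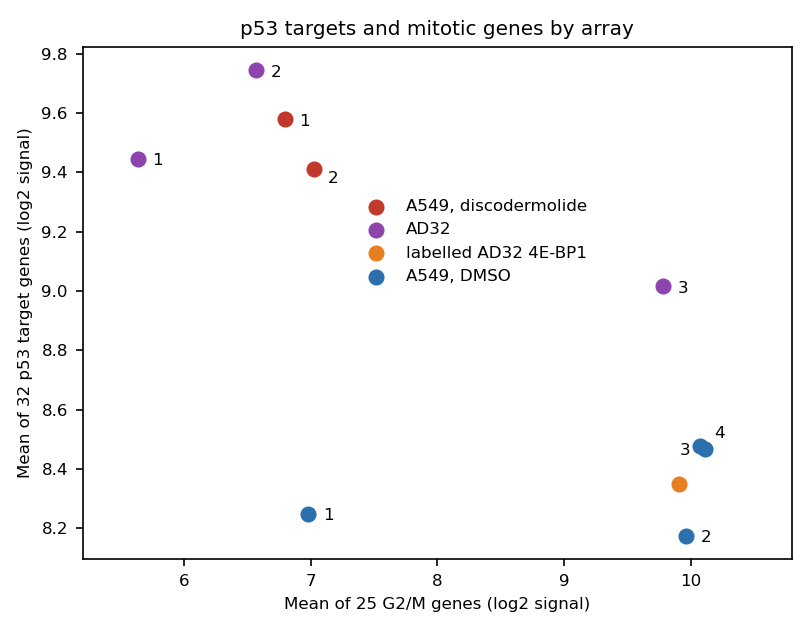
Mean log2 level of the 32 p53 target genes (vertical axis) against the mean log2 level of 25 G2/M genes (horizontal axis), 1 point per array, coloured by group. A549 in discodermolide and AD32 lie between 9.02 and 9.74 on the vertical axis and the DMSO arrays between 8.18 and 8.48. Within AD32 the array with the highest G2/M mean, 9.78, has the lowest p53 target mean, 9.02.

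The first comparison asked how the sensitive line responded to the drug. In A549 in discodermolide, 31 of the 32 genes had a higher mean than in A549 in DMSO, with a median difference of 1.09 against 0.02 over all genes. On 29 genes both treated arrays lay above all 4 DMSO arrays, a pattern seen for 15.2% of all genes, and on 0 genes below (7.71% of all genes). By limma, with p-values adjusted after Benjamini and Hochberg over all 18279 genes and a threshold of 0.05, 4 of the 32 rose (SPATA18, SESN1, EDA2R and DDB2), where 0.35% of all genes did, and 0 fell, where 0.0219% did. All 4 calls were lost when either treated array was left out, and the group of 2 leaves little room for a test.

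The second comparison set AD32, in the same drug concentration, against A549 in DMSO. Here 30 of 32 genes had a higher mean, with a median difference of 1.00 against 0.01 over all genes. Arrays did not overlap for 18 genes, all higher (8.9% of all genes were higher without overlap and 6.48% lower). By limma 11 rose: MDM2, SESN1, DDB2, EDA2R, AEN, XPC, PLK2, PLK3, SUSD6, TRIAP1 and CYFIP2. The same call was made for 3.52% of all genes upward and 2.19% downward, and 0 of the 32 fell. Of the 18 genes above DMSO on every AD32 array, all 18 were also above it on both treated A549 arrays, where 29 of the 32 lay above it. A further 11 were above it on the treated A549 arrays only, and GDF15, BBC3 and APAF1 in neither set. The share of all genes above DMSO in both sets was not computed. Both comparisons share the A549 DMSO arrays, so their values are set side by side here and not as support for each other.

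The 2 arrays that stood apart moved these counts by more than 1.5 times. Without A549 DMSO replicate 1, 11 genes were called in A549 in discodermolide and 18 in AD32 (17 higher and 1 lower), where 643 and 2164 of all 18279 genes were called, against 68 and 1045 with all arrays. Without AD32 replicate 3 the counts were 7 and 23, with 134 and 1965 over all genes. With both left out, an alternative chosen after the data were seen, they were 24 and 27 (25 higher and 2 lower), with 2656 and 5164 over all genes. The median differences of the list were then 1.03 and 1.34. Both arrays had been singled out by their G2/M means. Without them the AD32 arrays (5.63 and 6.57) and the A549 DMSO arrays (9.96 to 10.11) no longer overlapped in G2/M mean. Group and cycling state therefore cannot be told apart in that fit against A549 in DMSO. Leaving out A549 DMSO replicate 2, 3 or 4 gave 2 and 7 (12 to 16 and 512 to 745 over all genes), AD32 replicate 1 gave 4 and 7 (59 and 571), and AD32 replicate 2 gave 6 and 6 (77 and 522). With A549 DMSO replicates 3 and 4 averaged, the counts were 2 and 7 (15 and 525).

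**Figure D2:**
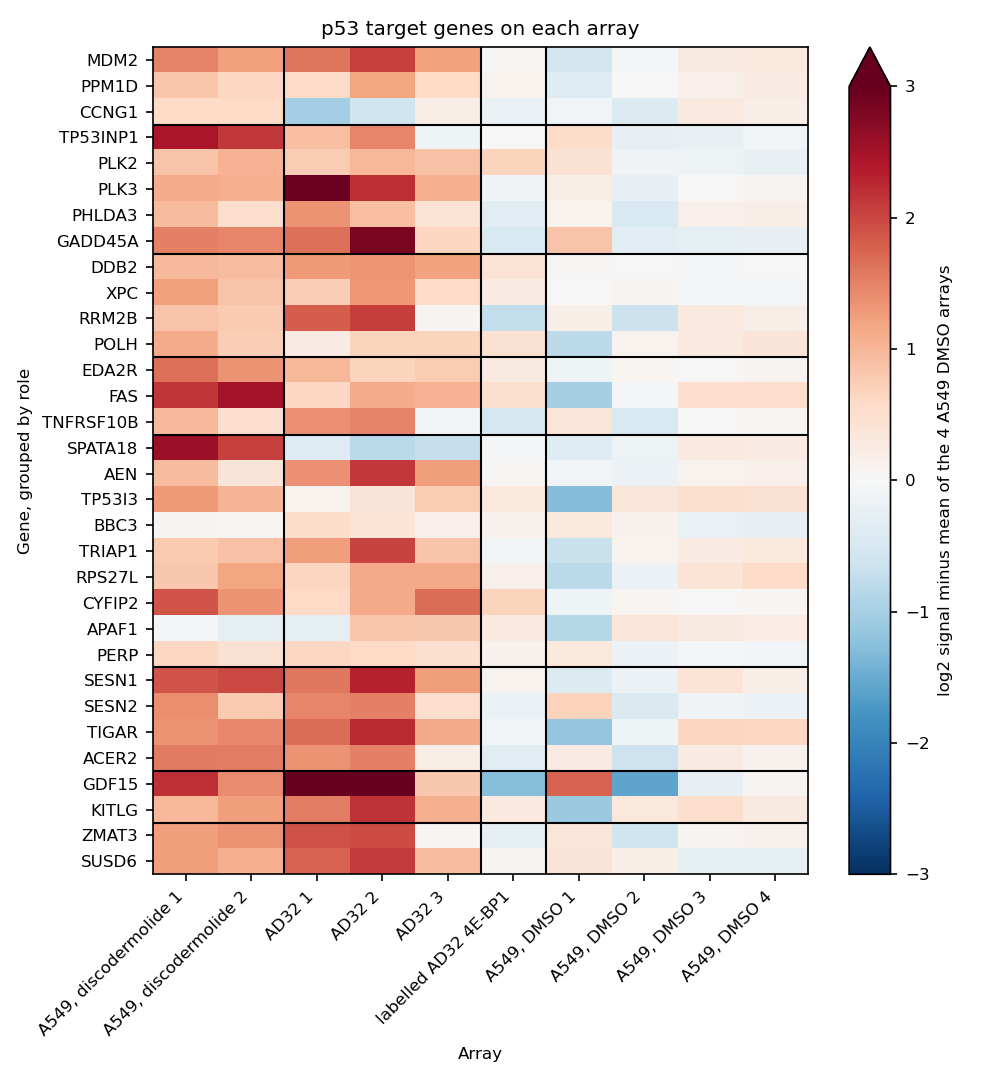
Log2 level of each p53 target gene on each array minus that gene's mean in A549 in DMSO, as colour, with genes in rows by role and arrays in columns, A549 in discodermolide first and A549 in DMSO last. Most rows are above 0 on the drug-exposed arrays and near 0 on the array labelled AD32 4E-BP1, and SPATA18 is high only on the A549 arrays in discodermolide; 2 values exceed the end of the colour scale.

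Among regulators of p53 itself, MDM2, the ligase that marks p53 for degradation, was 12.02 and 11.76 in A549 in discodermolide, 12.14, 12.57 and 11.74 in AD32, and 9.97, 10.49, 10.79 and 10.84 in A549 in DMSO. All drug-exposed arrays lay above all DMSO arrays. It was 3.08-fold higher in AD32 than in A549 in DMSO (log2 difference 1.62 ± 0.25 SE, limma adjusted p = 0.00746) and passed in all 19 alternative fits. In treated A549 the difference was 1.37 ± 0.29 SE and missed the threshold (limma adjusted p = 0.0993). PPM1D, a phosphatase that reverses stress-kinase phosphorylation of p53, showed differences of 0.73 in treated A549 and 0.79 in AD32 (limma adjusted p = 0.278 and 0.0576). CCNG1, which encodes cyclin G1 and recruits a phosphatase that activates MDM2, had a difference of 0.60 in treated A549 and of -0.47 in AD32, neither called.

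Of the proliferation brakes and polo-like kinases, 5 genes were measured and PLK2 and PLK3 were called in AD32. PLK3, a stress-responsive kinase, was 7.54 and 7.52 in A549 in discodermolide, 9.40, 8.66 and 7.51 in AD32, and 6.62, 6.20, 6.42 and 6.53 in A549 in DMSO. AD32 replicate 3 lay beside the treated A549 arrays while the other AD32 arrays lay above them. It was 4.24-fold higher in AD32 than in DMSO (2.08 ± 0.36 SE, limma adjusted p = 0.0118), and its call was lost without AD32 replicate 2 (limma adjusted p = 0.0558). PLK2, a kinase of the centriole cycle whose gene p53 induces, was 11.13 and 11.31 in A549 in discodermolide, 11.03, 11.25 and 11.14 in AD32, and 10.73, 10.17, 10.12 and 10.04 in A549 in DMSO. A549 DMSO replicate 1 was the highest of its group and still under every drug-exposed array. The fold in AD32 was 1.83 (limma adjusted p = 0.0226, 0.000502 to 0.0938 over the 19 alternatives).

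TP53INP1, which encodes a nuclear-body protein that promotes phosphorylation of p53, was 10.34 and 10.01 in A549 in discodermolide, 8.79, 9.35 and 7.77 in AD32, and 8.44, 7.64, 7.66 and 7.80 in A549 in DMSO. The treated A549 arrays were above all others, and AD32 replicate 3 lay within the DMSO range. Its difference of 2.29 in treated A549 had a limma adjusted p of 0.0569, and that of 0.75 in AD32 one of 0.289. GADD45A, a growth-arrest gene, showed differences of 1.49 in treated A549 and 1.70 in AD32, and PHLDA3, an inhibitor of Akt, 0.73 and 0.89. Neither was called in either comparison.

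In the DNA repair and nucleotide group, DDB2, the damage-recognition factor of nucleotide excision repair, had the tightest replicates. It was 9.79 and 9.73 in A549 in discodermolide, 10.08, 10.15 and 10.03 in AD32, and 8.86, 8.80, 8.77 and 8.83 in A549 in DMSO. The 3 groups did not overlap, and neither A549 DMSO replicate 1 nor AD32 replicate 3 left its group. It rose 1.92-fold in treated A549 (0.94 ± 0.12 SE, limma adjusted p = 0.0174) and 2.41-fold in AD32 (1.27 ± 0.10 SE, limma adjusted p = 0.000189). The call in AD32 held in all 19 alternatives, and that in treated A549 in 11. DDB2 is the gene whose printed promoter carries the full p53 site in capitals.

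XPC, which works with DDB2 in recognising lesions, was 9.38 and 9.00 in A549 in discodermolide, 8.89, 9.45 and 8.73 in AD32, and 8.14, 8.24, 8.12 and 8.09 in A549 in DMSO. All drug-exposed arrays were above the DMSO arrays. The fold in AD32 was 1.83 (limma adjusted p = 0.0265, highest 0.0875 over 19 alternatives), and in treated A549 the difference of 1.04 was not called (limma adjusted p = 0.0859). POLH, a translesion polymerase, and RRM2B, the p53-inducible ribonucleotide reductase subunit, differed by 0.93 and 0.82 in treated A549 and by 0.52 and 1.32 in AD32, and neither passed.

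**Figure D3:**
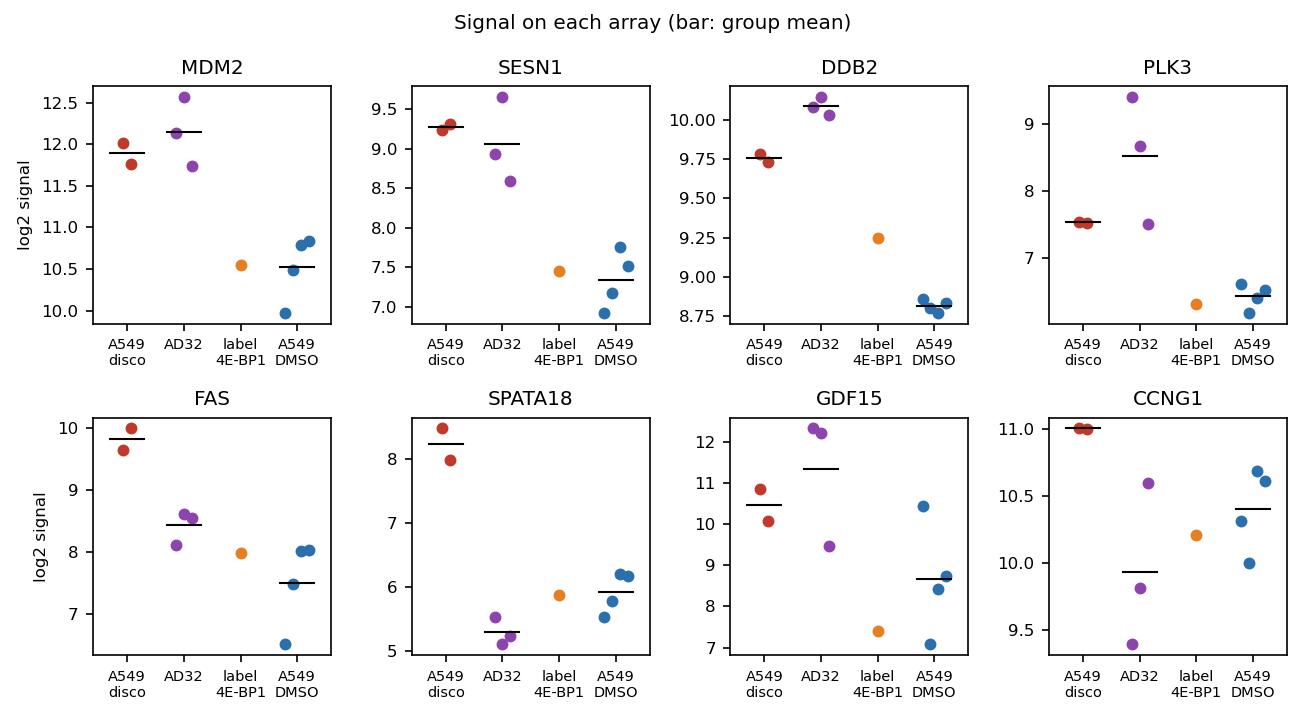
Log2 level on every array for MDM2, SESN1, DDB2, PLK3, FAS, SPATA18, GDF15 and CCNG1, 1 panel per gene, with A549 in discodermolide at the left, then AD32, the lone array labelled AD32 4E-BP1 and A549 in DMSO; horizontal bars are group means. DDB2 separates all groups, SPATA18 is high only in A549 in discodermolide, and GDF15 spreads from 7.08 to 10.44 within A549 in DMSO.

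In the group of death receptors and related receptors, EDA2R, the receptor of ectodysplasin A2, was 9.07 and 8.77 in A549 in discodermolide, 8.44, 8.10 and 8.20 in AD32, and 7.31, 7.48, 7.41 and 7.52 in A549 in DMSO. The 3 groups did not overlap, with AD32 between the other groups. It rose 2.81-fold in treated A549 (1.49 ± 0.15 SE, limma adjusted p = 0.00796) and 1.76-fold in AD32 (0.81 ± 0.14 SE, limma adjusted p = 0.00978). FAS, which triggers caspase activation on binding its ligand, was 9.65 and 10.00 in A549 in discodermolide, 8.11, 8.61 and 8.55 in AD32, and 6.50, 7.47, 8.01 and 8.02 in A549 in DMSO. Treated A549 arrays were the highest, and the lowest AD32 array was only just above the highest DMSO array. The FAS difference in treated A549, 2.33 ± 0.40 SE, missed the threshold (limma adjusted p = 0.0541), as did that of 0.93 in AD32 (limma adjusted p = 0.18). TNFRSF10B, the TRAIL receptor DR5, differed by 0.74 and 0.93 and was not called.

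The group of other apoptosis and mitochondrial genes held 9 measured genes, of which 1 was called in treated A549 and 3 in AD32. SPATA18, which encodes Mieap, a mitochondrial quality-control protein, was 8.48 and 7.98 in A549 in discodermolide, 5.54, 5.11 and 5.24 in AD32, and 5.54, 5.78, 6.21 and 6.17 in A549 in DMSO. Only the treated A549 arrays were high, and AD32 lay in or below the DMSO range. SPATA18 rose 4.94-fold in treated A549 (2.30 ± 0.24 SE, limma adjusted p = 0.00796), while the AD32 difference was -0.63 ± 0.21 SE (limma adjusted p = 0.131). With A549 DMSO replicate 1 and AD32 replicate 3 both left out, that difference was -0.73 with a limma adjusted p of 0.0273.

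AEN, a nuclease that digests DNA during apoptosis, was 9.46 and 8.91 in A549 in discodermolide, 9.89, 10.64 and 9.78 in AD32, and 8.44, 8.34, 8.62 and 8.68 in A549 in DMSO. The order was AD32 above treated A549 above DMSO, without overlap. Its fold in AD32 was 2.99 (1.58 ± 0.23 SE, limma adjusted p = 0.00545), kept in all 19 alternatives, and its difference in treated A549 was 0.67 (limma adjusted p = 0.388). TRIAP1, a small mitochondrial lipid-transfer protein that restrains apoptosis, was 9.53 and 9.63 in A549 in discodermolide, 10.00, 10.77 and 9.61 in AD32, and 8.08, 8.84, 8.99 and 9.05 in A549 in DMSO. Drug-exposed arrays were all above DMSO arrays, of which replicate 1 was the lowest. TRIAP1 was 2.61-fold higher in AD32 (limma adjusted p = 0.0325), a call kept in 9 of 19 alternatives.

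CYFIP2, a subunit of the WAVE actin-regulatory complex, was 10.34 and 9.78 in A549 in discodermolide, 9.03, 9.58 and 10.12 in AD32, and 8.32, 8.50, 8.45 and 8.49 in A549 in DMSO. Here AD32 replicate 3 was the highest of its group. CYFIP2 rose 2.19-fold in AD32 (limma adjusted p = 0.0285, kept in 13 of 19 alternatives), and the difference of 1.62 in treated A549 had a limma adjusted p of 0.0541. BBC3, which encodes the BH3-only killer protein PUMA, was 7.65 and 7.63 in A549 in discodermolide, 8.10, 7.97 and 7.72 in AD32, and 7.88, 7.70, 7.36 and 7.30 in A549 in DMSO. The groups overlapped, and the differences were 0.08 in treated A549 and 0.37 in AD32 (limma adjusted p = 0.937 and 0.281). The 95% interval in treated A549, -0.36 to 0.52, leaves out a 2-fold rise. APAF1, the apoptosome scaffold, differed by -0.18 in treated A549 and 0.45 in AD32. It was 7.91 on A549 DMSO replicate 1, while replicates 2 to 4 averaged 9.04. The APAF1 means were 8.58 in treated A549 and 9.21 in AD32. TP53I3, RPS27L and PERP had positive differences in both comparisons, between 0.42 and 1.15, and none was called. The TP53I3 mean in AD32 was 9.55, and A549 DMSO replicates 2 to 4 averaged 9.56. Its positive difference in AD32 rested on A549 DMSO replicate 1, at 7.82.

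The sestrins and metabolic genes were 4 in number. SESN1, which restrains mTORC1 and limits peroxides, was 9.24 and 9.32 in A549 in discodermolide, 8.93, 9.66 and 8.59 in AD32, and 6.93, 7.18, 7.75 and 7.51 in A549 in DMSO. The drug-exposed arrays were all above the DMSO arrays. SESN1 rose 3.82-fold in treated A549 (1.94 ± 0.31 SE, limma adjusted p = 0.0423) and 3.29-fold in AD32 (1.72 ± 0.27 SE, limma adjusted p = 0.00771). The AD32 call was kept in all 19 alternatives and the call in treated A549 in 9. Its relative SESN2 differed by 1.09 and 1.16, TIGAR, which diverts glucose from glycolysis, by 1.40 and 1.68, and the ceramidase gene ACER2 by 1.54 and 1.02, in treated A549 and in AD32. None of these 3 was called.

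GDF15, a secreted stress cytokine, was 10.86 and 10.08 in A549 in discodermolide, 12.33, 12.21 and 9.47 in AD32, and 10.44, 7.08, 8.42 and 8.74 in A549 in DMSO. The groups overlapped: A549 DMSO replicate 1 lay above AD32 replicate 3 and above the second treated array. GDF15 had the largest AD32 difference of the 32 genes, 2.67, and also the largest error (0.86 SE, limma adjusted p = 0.116). With A549 DMSO replicate 1 and AD32 replicate 3 left out, the difference was 4.19 (limma adjusted p = 6.70e-05). Both arrays had been singled out by their G2/M means, and across all arrays GDF15 had r = -0.90 with the G2/M mean. That alternative therefore does not separate line and drug from cycling state. KITLG, the ligand of the KIT receptor, differed by 1.12 in treated A549 and 1.59 in AD32, the second with a limma adjusted p of 0.0525. SUSD6, a membrane protein gene induced by DNA damage, was 8.42 and 8.23 in A549 in discodermolide, 8.93, 9.26 and 8.09 in AD32, and 7.54, 7.33, 6.90 and 6.88 in A549 in DMSO. No drug-exposed array reached down to the DMSO arrays, and the rise in AD32 was 3.02-fold (1.60 ± 0.28 SE, limma adjusted p = 0.0118). ZMAT3, an RNA-binding regulator of splicing, differed by 1.31 and 1.30 and was not called.

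The third comparison set the resistant against the sensitive line in the same drug concentration. The 32 genes had a median difference of 0.07 for AD32 minus treated A549, with 18 positive and 14 negative differences, against a median of 0.01 over all genes. Without AD32 replicate 3 the list's median was 0.38, with 20 positive differences. SPATA18 was the only gene called: it was 7.63-fold lower in AD32 (-2.93 ± 0.25 SE, limma adjusted p = 0.000467), and it passed in all 19 alternatives. Counts without AD32 replicate 2, AD32 replicate 3 and A549 DMSO replicate 1 were 2, 3 and 4, with 420, 1082 and 1215 over all genes, against 683 with all arrays. The call was made for 2.46% of all genes downward and 1.28% upward. Arrays did not overlap for DDB2, AEN and BBC3 in the upward direction (14.4% of all genes) and for 8 genes in the downward direction (18% of all genes). The list's counts lay near these shares.

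Those 8 were SPATA18, EDA2R, FAS, TP53I3, TP53INP1, CCNG1, POLH and ACER2. FAS differed by -1.40 (95% interval -2.34 to -0.46, limma adjusted p = 0.118), TP53INP1 by -1.54 (-2.49 to -0.59, limma adjusted p = 0.0895) and EDA2R by -0.68 (-1.04 to -0.31, limma adjusted p = 0.057). With A549 DMSO replicate 1 and AD32 replicate 3 left out, 14 genes were called, 7 in each direction, where 2769 of all genes were called. They included FAS, TP53INP1 and EDA2R among the lower ones and GDF15, AEN and PLK3 among the higher ones. For genes that were high in both drug-exposed groups the intervals were wide. MDM2 differed by 0.26 (-0.43 to 0.95), SESN1 by -0.22 (-0.95 to 0.51), PLK2 by -0.08 (-0.56 to 0.40) and XPC by -0.17 (-0.66 to 0.33). A 2-fold difference lies outside each of these 4 intervals. For some other genes above DMSO in both groups it lies inside, such as PLK3 (0.006 to 1.97) and KITLG (-0.61 to 1.55). For GDF15 the interval was -1.44 to 3.18.

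**Figure D4:**
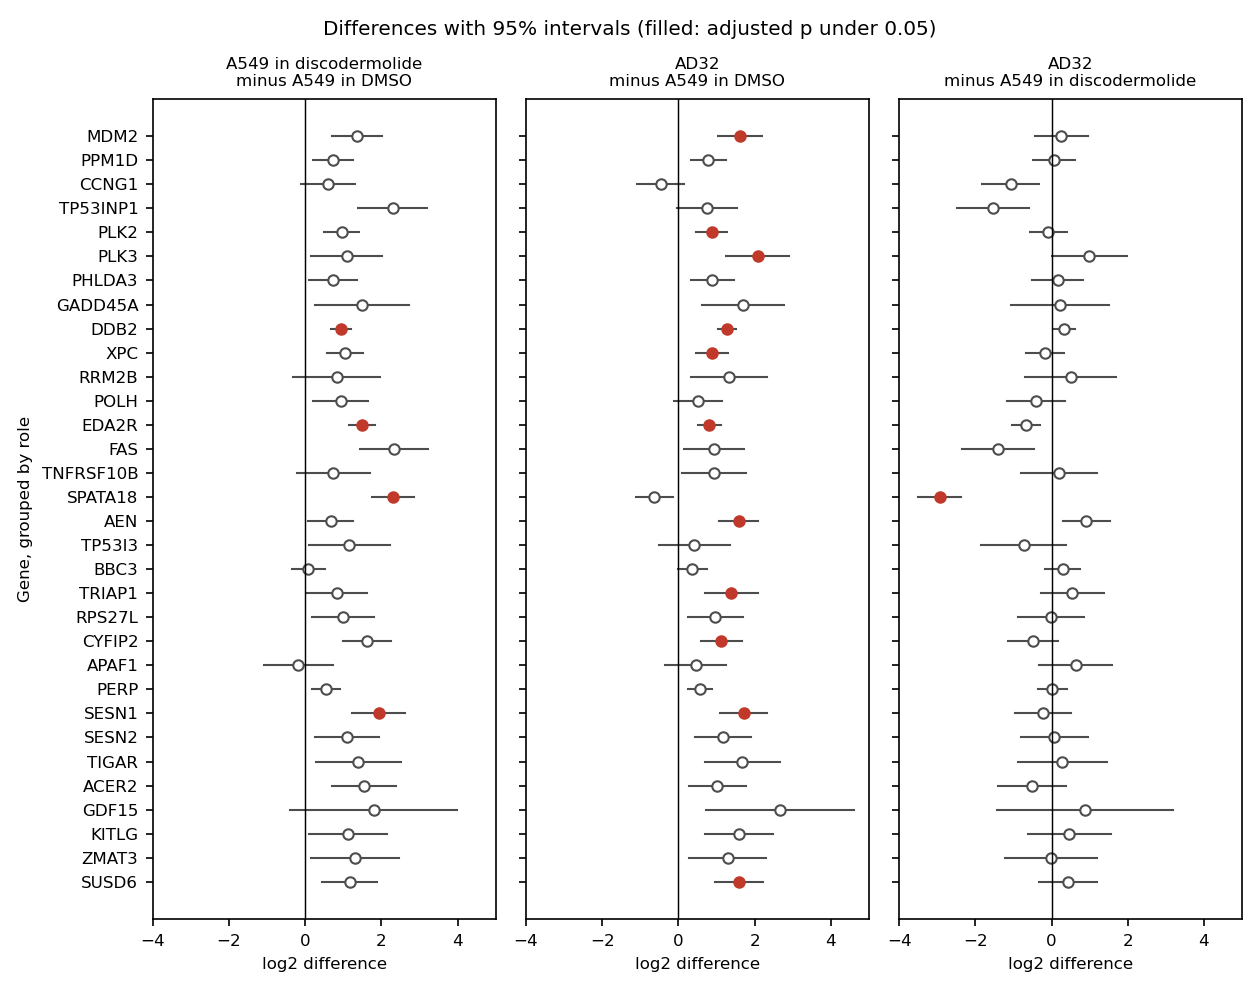
Log2 difference of each p53 target gene with its 95% interval from limma, for A549 in discodermolide minus A549 in DMSO, AD32 minus A549 in DMSO, and AD32 minus A549 in discodermolide, 1 panel each; filled points passed an adjusted p of 0.05. In the first and second panels 31 and 30 of 32 points lie right of 0, and in the third the points spread around 0 with SPATA18 at -2.93.

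On the array labelled AD32 4E-BP1, which is 1 sample assumed by the fit to vary like the other groups, p53 target genes were low. It lay below all AD32 arrays on 25 of 32 genes (27.7% of all genes), with a median difference from AD32 of -1.03. On it 26 genes were nearer the A549 DMSO mean than the AD32 mean, and that share over all genes was not computed. Over all probe sets the array had r = 0.9636 to 0.9955 with the A549 DMSO arrays and 0.9444 to 0.9828 with the AD32 arrays. MDM2 was 10.55, SESN1 7.45, AEN 8.56, PLK3 6.32, SUSD6 7.25 and TRIAP1 8.65 there, each within or below the range of A549 in DMSO. EDA2R at 7.69, XPC at 8.38, PLK2 at 10.94 and CYFIP2 at 9.12 lay between the A549 DMSO and AD32 arrays or, for CYFIP2, within AD32. FAS was 7.98, TP53INP1 7.89, BBC3 7.70 and SPATA18 5.88, all inside the DMSO range, and GDF15 was 7.40, near its lowest DMSO array.

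DDB2 was 9.25 there, against 10.08, 10.15 and 10.03 in AD32, and was the only gene called (-0.84 ± 0.16 SE, limma adjusted p = 0.0497, where 0.58% of all genes were called lower). That call was kept in 6 of 18 alternatives, with limma adjusted p from 0.00714 to 0.639. Without AD32 replicate 3, 12 genes were called lower, and without A549 DMSO replicate 1, 2 were, with 656 and 262 called over all genes, against 168 with all arrays. Leaving out any of the other 7 replicates gave 0, with 99 to 122 over all genes. Against A549 in DMSO, limma called 0 of the 32 genes and 0 of 18279 genes (0%), and 2 of the 32, DDB2 and PLK2, had an unadjusted p under 0.05, as did 208 of all genes. The median difference was 0.06. The drug differed between this array and AD32 along with the line, and the array lacked AD32 marker genes, so line, drug and construct cannot be told apart here.

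CDKN1A, the p21 gene left out of the list, was 10.21 and 9.79 in A549 in discodermolide, 10.28, 10.45 and 9.00 in AD32, 8.00 on the array labelled AD32 4E-BP1, and 8.64, 7.59, 8.35 and 8.36 in A549 in DMSO. It was higher on every drug-exposed array than on any DMSO array, by 3.40-fold in treated A549 (limma adjusted p = 0.133) and 3.19-fold in AD32 (limma adjusted p = 0.0309).

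Other genes of the pathway were taken from lists written with earlier results of these data known. Of 80 measured further p53 targets, 5 rose in treated A549 and 0 fell (0.35% and 0.0219% of all genes), with a median difference of 0.57 against 0.02 over all genes. The 4 with the smallest p were SULF2, an extracellular sulfatase (6.59-fold), TRIM22, an antiviral ubiquitin ligase (7.97 ± 0.14, n = 2, in treated A549 and 4.90 ± 0.23, n = 4, in DMSO, means with SD), the growth factor gene CSF1 (2.98-fold) and TLR3, a sensor of double-stranded RNA (3.77-fold). In AD32 22 of the 80 rose and 2 fell against A549 in DMSO (3.52% and 2.19% of all genes), with a median difference of 0.54 against 0.01 over all genes. The 4 with the smallest p were SERPINB5, the maspin gene (10.83, 10.46 and 9.49 in AD32 against 3.68 to 4.26 in A549 in DMSO), SULF2 (4.62-fold), the cytidine deaminase gene APOBEC3C (2.23-fold) and PRDM1, a transcriptional repressor (7.61 ± 0.73, n = 3, in AD32 and 4.91 ± 0.27, n = 4, in A549 in DMSO, means with SD). AD32 against treated A549 gave 3 higher and 7 lower (1.28% and 2.46% of all genes). The 4 with the smallest p were SERPINB5, higher in AD32, and ANXA4, TRIM22 and TLR3, lower there. SERPINB5 was 3.97 and 4.19 in treated A549, within its range in A549 in DMSO. ANXA4, an annexin gene, was 3.14-fold lower in AD32 and TLR3 4.70-fold lower. TRIM22 was 5.16 ± 0.63 (n = 3) in AD32 and 7.97 in treated A549.

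Among regulators of p53 placed outside the lists of targets used here, 23 were measured, and their counts lay near those of all genes. In treated A549 0 were called by limma (0.35% of all genes rose), 1 had an unadjusted p under 0.05 (2033 of all 18279 genes did), and the median difference was -0.05. In AD32 1 rose (3.52% of all genes) and the median was -0.03. That gene was PPP1R13L, which encodes the p53 inhibitor iASPP (1.59-fold, limma adjusted p = 0.0412). MDM4, the MDM2 relative that masks p53's activation domain, was 8.30 and 8.18 in A549 in discodermolide, 7.89, 8.55 and 7.50 in AD32, and 8.76, 8.26, 8.64 and 8.52 in A549 in DMSO. The groups overlapped, with differences of -0.31 and -0.57 (limma adjusted p = 0.765 and 0.221).

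Within groups, the 32 genes lay mostly lower on AD32 replicate 3 than on the other AD32 arrays, and on both sides of their group on A549 DMSO replicate 1. A549 DMSO replicate 1 was the highest of its group for 12 genes and the lowest for 14, where it was the highest for 41.5% and the lowest for 35.2% of all genes. KITLG, TIGAR, FAS and TP53I3 were lowest there (6.96, 7.23, 6.50 and 7.82), while GDF15 and GADD45A were highest (10.44 and 9.44). AD32 replicate 3 was below both other AD32 arrays on 21 genes and above on 5, where it was below for 40.5% and above for 31.5% of all genes. RRM2B (9.50 against 11.22 and 11.48), ZMAT3 (8.37 against 10.24 and 10.31) and GDF15 were low on it, and CCNG1 (10.60 against 9.40 and 9.82) was high. Of the 32 genes, 21 were above all A549 DMSO arrays on AD32 replicate 3, as were 21.5% of all genes.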

How the data were processed

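Transcript levels were measured on 10 Affymetrix arrays, grouped by the cell line and treatment in the labels. The authors' values, which by their range are log2 signals, came, per the submitters' processing notes, from Affymetrix Expression Console. Which version and normalization were used is not given in the sources used here, and array medians were already alike. Without detection calls, a low signal was not read as absence, and the number of arrays limits the precision.

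The platform annotation gave 1 gene for 19262 of 24308 probe sets, several for 1720 and none for 3326. Only the first kind was used, which left 18279 genes.

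Groups were compared with limma 3.58.1 (lmFit and eBayes, R 4.3.3) in 1 fit of all arrays, two-sided, with adjustment over all genes. The lone array labelled AD32 4E-BP1 was assumed to vary like the other groups. The 32 genes were described by counts and medians beside those of all genes, with no test of the list. Values on every array are given for genes called in any comparison and for MDM2, GDF15, FAS, BBC3 and TP53INP1, and from each further list at most the 4 called genes with the smallest p are named. MAGEB2 and KRT7, which show how the lone array differs from AD32, were chosen after their values were seen. The genes and lists were chosen with earlier results of these data known. The fit was tested on simulated data.

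The fits were repeated after quantile normalization between arrays, with arrays centred on their medians, without the dimmest 33.3% of genes, with probe sets of a gene averaged, with a trended robust prior, array weights or the compared groups alone, with A549 DMSO replicates 3 and 4 averaged, with each replicate left out in turn, and with the replicate number as a block. Leaving out A549 DMSO replicate 1 and AD32 replicate 3 together was added after the data were seen. Figures were drawn with Python 3.11.15 and matplotlib 3.10.9.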

Additional observations from a re-analysis of the deposited data

Results flagged for a closer look

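In the group of 4 A549 DMSO arrays, 7 of the 32 genes had 1 array far from the other 3, by Dixon's test of the gap against the range. On replicate 1, TP53I3 was lowest at 7.82 (the others 9.50 to 9.61), APAF1 lowest at 7.91 (8.98 to 9.11), KITLG lowest at 6.96 (8.36 to 8.60) and GADD45A highest at 9.44 (8.26 to 8.33). On replicate 2, RRM2B was lowest at 8.76 (9.58 to 9.70), PHLDA3 lowest at 7.60 (8.18 to 8.25) and ACER2 lowest at 5.74 (6.49 to 6.61). Chance alone gives this in about 5% of groups, and it was found for 13.7% of all genes on these arrays, 11.2% on replicate 1. Replicates 3 and 4 were nearly identical, which narrows the range the other arrays are set against.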

How the results depend on the processing

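The 4 genes called in A549 in discodermolide against DMSO became 2 after quantile normalization, 7 with a trended robust prior, 27 with array weights, 8 with the compared groups alone, 2 with A549 DMSO replicates 3 and 4 averaged, and 24 without A549 DMSO replicate 1 and AD32 replicate 3. Leaving out each replicate gave 0 to 11. Over all 18279 genes, where 68 were called, array weights gave 4573, quantile normalization 46, the trended prior 92, the compared groups alone 106 and averaging 15. The 11 called in AD32 against A549 in DMSO became 27 with array weights, 7 with replicates 3 and 4 averaged, 27 without those 2 arrays, and 6 to 23 with each replicate left out. Array weights called 4215 of all genes there, against 1045 in the fit as reported. In AD32 against A549 in discodermolide, 1 became 7 with array weights, 2 with the compared groups alone, 14 without the 2 arrays, and 1 to 4 with each replicate left out. All-gene calls were 683, with 1869 under array weights and 353 with the compared groups alone. For the array labelled AD32 4E-BP1 against AD32, 1 became 0 after quantile normalization, with the dim genes removed, with a trended prior, with the compared groups alone and with replicates 3 and 4 averaged, 17 with array weights, 18 without the 2 arrays, and 0 to 12 with each replicate left out. All-gene calls were 168, with 1282 under array weights and 3005 without the 2 arrays. Against A549 in DMSO that array gave 0 in every setting run. With the replicate block the counts were 0, 8 and 3 in the first 3 comparisons, with 4, 650 and 547 called over all genes. Same-numbered AD32 and A549 DMSO arrays deviated together for numbers 1 and 3 (r = 0.677 and 0.411) but not 2 (r = -0.264). An unlike-numbered pair, AD32 replicate 3 and A549 DMSO replicate 2, also deviated together (r = 0.534). Deviations from a group's own mean are tied to each other, so these correlations cannot show whether a number marks a shared batch. No paired analysis was possible for the array labelled AD32 4E-BP1 because it carries no number. The array weights were 2.93 and 4.64 for A549 DMSO replicates 3 and 4 and 0.184 for replicate 1. MDM2, SESN1, DDB2, EDA2R and AEN in AD32 against A549 in DMSO, and SPATA18 in AD32 against A549 in discodermolide, passed in all 19 alternatives. No called difference changed sign in any alternative. Causes of the changed counts were not tested.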
